A study of Homo sapiens with 4 samples.

Results

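The narrowest peaks in a map of ELF5 binding are described here: 10553 autosomal peaks of exactly the smallest width in the list, 1 bp below the next width of 136 bp. They are called minimum-width peaks and were chosen by width alone (end minus start) from 113831 autosomal peaks. The whole list held 115384. The other 103278 autosomal peaks serve as the comparison. The study mapped ELF5 by chromatin immunoprecipitation and sequencing (ChIP-seq) in T47D, a human breast epithelial cell line of the luminal A type, untreated and grown in RPMI with serum and insulin. Its samples were 3 ELF5 ChIP replicates and 1 input of the same line, and the values analysed here were 1 peak list on hg19 with no value per replicate. No spread between replicates can be attached to a peak, and no test was run between groups of peaks, since peaks of 1 list are not replicates. Comparisons are given as medians and percentages, and their 95% intervals (order-statistic for medians, exact Clopper-Pearson for percentages) cover counting error only and treat peaks as independent, which neighbouring peaks are not. Positions are on hg19 and counted from 1.

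ELF5 is a transcription factor of the ETS family, whose members bind DNA through a shared domain that recognises a short core sequence. In the mammary gland it is known for directing luminal progenitors towards the milk-producing alveolar fate. In a ChIP-seq peak list, the width of a peak is the length over which sequenced fragments pile up above the local background. A tall, well-supported site is usually also wide, while a narrow peak can be a weak site or a chance excess of a few fragments. The list alone does not tell these apart, and no hg19 sequence was used here, so no peak was searched for the ETS core.

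The minimum-width peaks formed a spike at the lower end of the width distribution. No source used here says whether the caller set a smallest width, so the spike is not read as a feature of binding. Each of the next 15 widths, 136 to 150 bp, held between 713 and 863 autosomal peaks, and together these widths held 11670. Just outside the rule, the 863 peaks of 136 bp had a median fold of 3.15 and a median −log10 p of 4.29. Inside it, the median fold was 3.04 and the median −log10 p was 3.85. The fold is the authors' deposited signal value, which behaves as ChIP fragments over local background, and the p, like every p and q given below, is the authors' own from the authors' deposited table. Between 136 and 150 bp the median −log10 p lay between 4.29 and 4.50, so the minimum-width peaks lay below all 15 neighbouring widths.

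**Figure D1:**
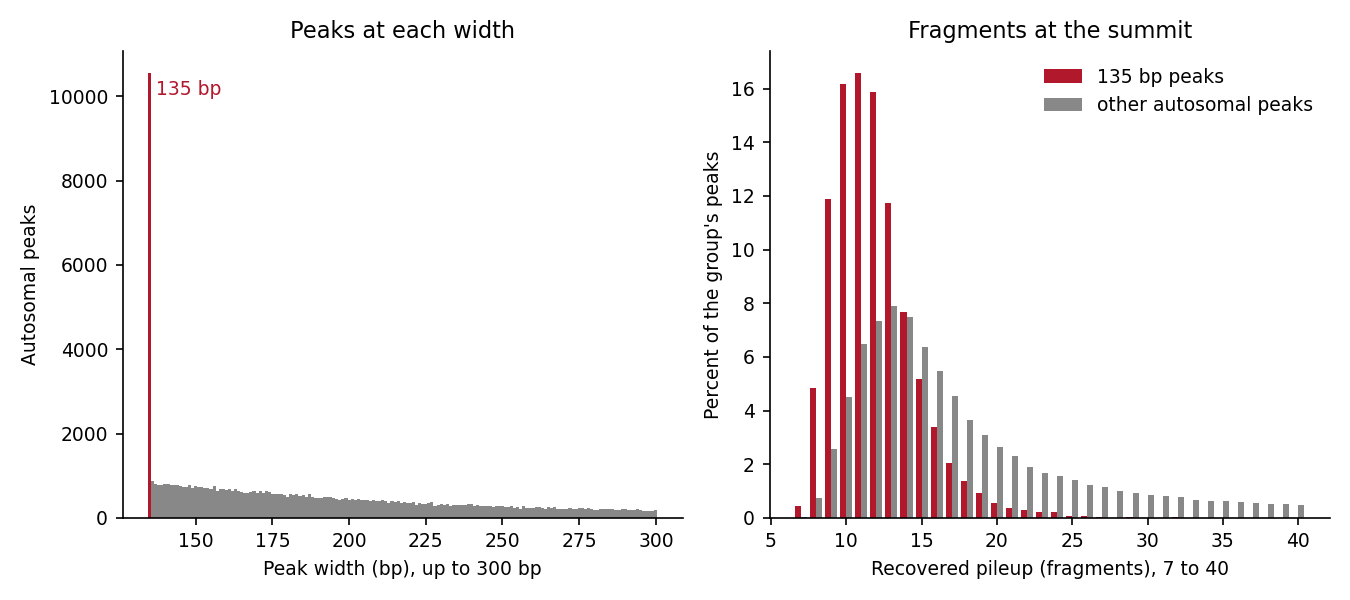
Left, the number of autosomal peaks (y axis) at each width in bp up to 300 bp, with the 10553 minimum-width peaks in red. Right, the percent of each group's peaks (y axis) at each recovered pileup in fragments (x axis), for minimum-width peaks in red and other autosomal peaks in grey; 72.3% of the minimum-width peaks and 28.8% of the others had pileups of 9 to 13.

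Width, fold, p and q come from the same peak call, so the next values describe the minimum-width peaks and support nothing. The median fold was 3.04 in minimum-width peaks (quartiles 2.72 and 3.37) and 3.78 in other peaks (3.05 and 5.90). No minimum-width peak had a fold above 5.79, while the highest in the other peaks was 72.5. The pileup, the number of fragments stacked at the summit as recovered from fold and p, had a median of 12 in minimum-width peaks and 17 in other peaks. Most minimum-width peaks, 7625 of 10553, rested on 9 to 13 fragments. The local background recovered the same way had a median of 2.88 fragments in minimum-width peaks and 3.24 in other peaks. It was at the lowest level in the list, 1.81 fragments, at 13.8% of minimum-width peaks and 7.51% of other peaks. The background is on the scale of pileups multiplied by 0.910, and the fold adds 1 to both. A pileup divided by its background therefore does not give the fold. The authors' q was under 0.05 for 7463 of the minimum-width peaks (70.7%), where 87.4% of all autosomal peaks had such a q.

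Many of these peaks had exactly the same values. The 10553 peaks shared 1330 pairs of fold and p, and the 10 commonest pairs covered 23.5% of them. The 103278 other peaks shared 11786 pairs, so shared values were not particular to the minimum-width peaks. The commonest, a fold of 3.59 from a pileup of 10 over a background of 1.81, occurred 397 times. Its exact Poisson 95% interval, with the background held fixed, ran from 1.91 to 6.30, which spans the highest fold of any minimum-width peak. The second, a fold of 3.27 from a pileup of 9 over the same background, occurred 396 times. Minimum-width peaks with folds this close could not be ranked at this depth.

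The extremes by fold and by p also rested on few fragments. The highest fold, 5.79 (interval 3.57 to 8.96), was shared by a peak in 1p31.3 on chromosome 1 from 68018156 to 68018290 and one in 18q21.32 on chromosome 18 from 56751519 to 56751653. Each had 18 fragments over a background of 2. The next, in 4p15.2 on chromosome 4 from 27686274 to 27686408, had a fold of 5.49 (3.34 to 8.59). At the other end, the weakest p was 0.00982, at a peak in 15q24.1 on chromosome 15 from 74577708 to 74577842 with 7 fragments over a background of 2.32 and a q of 0.583. The next were a peak in 5p15.33 with a p of 0.00954 and a peak in 1q42.13 with a p of 0.00883. The lower interval bounds of the folds of these 3 peaks, 1.07, 1.08 and 1.14, came close to the background itself. The intervals come from the same fragments and background as the p, so bounds above the background add no support.

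Summits of minimum-width peaks lay near the middle of the peak less often than summits of other peaks. The central part of the peak, 1 of 3 equal parts, held 51.7% of summits in minimum-width peaks (interval 50.8% to 52.7%) and 62.1% in other peaks (61.8% to 62.4%). Among other peaks with a −log10 p between 3.23 and 4.69, the interquartile range of the minimum-width peaks, it held 55.5%. Position within a peak depends on the width that chose the members, so this too is a description.

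The rule did not use position, but spacing may not be separate from width. Narrow and wide peaks differ in how close their summits can come. The smallest gap from edge to edge was 51 bp in minimum-width peaks and 51 bp in other peaks. Whether closer stretches had been joined into wider peaks was not tested. The minimum-width peaks stood farther from their neighbours. The distance from a summit to the nearest other summit had a median of 2362 bp in minimum-width peaks (interval 2256 to 2463) and 1493 bp in other peaks (1476 to 1512), a ratio of 1.58. Against other peaks of the same p range, whose median was 1490 bp, the ratio was 1.59. Here and below, only the other peaks were limited to that interquartile range, and all minimum-width peaks were kept. The minimum-width peaks were the more distant group on 22 of 22 autosomes, with ratios from 1.13 on chromosome 11 to 2.10 on chromosome 18. On chromosome 18 the medians were 10883 bp in minimum-width peaks and 5181 bp in other peaks, the longest of any autosome in both groups.

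Fewer of the minimum-width peaks had a close neighbour. A neighbour within 1 kb was found for 31.1% of minimum-width peaks (interval 30.2% to 31.9%) and 39.2% of other peaks (38.9% to 39.5%). Between 1000 and 5000 bp the percentages were 33.5% and 33.4%, and beyond 5000 bp they were 35.4% in minimum-width peaks and 27.4% in other peaks. Between 250 and 300 bp from a neighbour lay 2.95% of minimum-width peaks, 2.95% of other peaks of the same p range and 2.36% of all other peaks. When peaks within 1 kb of each other were joined and the distance was taken to the nearest peak outside the joined stretch, the medians were 4791 bp for minimum-width peaks and 4545 bp for other peaks, a ratio of only 1.05.

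Width and spacing did not follow a straight line. Above the minimum the median distance to the nearest summit was 1896 bp at widths of 136 to 148 bp, 1831 bp at 149 to 199 bp, 1497 bp at 200 to 299 bp and 1083 bp at 300 to 499 bp. It was 1084 bp at 500 to 799 bp and 1749 bp at 800 bp or more. By this median the minimum-width peaks were the most widely spaced class and peaks of 300 to 799 bp the most crowded. By other measures peaks of 800 bp or more were the more isolated, with a neighbour within 1 kb for 31.1% of minimum-width peaks and 28.2% of peaks of 800 bp or more. That share was 35.6% at 136 to 148 bp and 36.0% at 149 to 199 bp. The share of peaks with no other peak within the stitching distance commonly used to define super-enhancers was 20.1% for minimum-width peaks. It was 17.8% at 136 to 148 bp, 16.7% at 149 to 199 bp and 13.7% at 200 to 299 bp. At larger widths it was 9.56% for 300 to 499 bp, 13.8% for 500 to 799 bp and 21.5% for 800 bp or more.

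**Figure D2:**
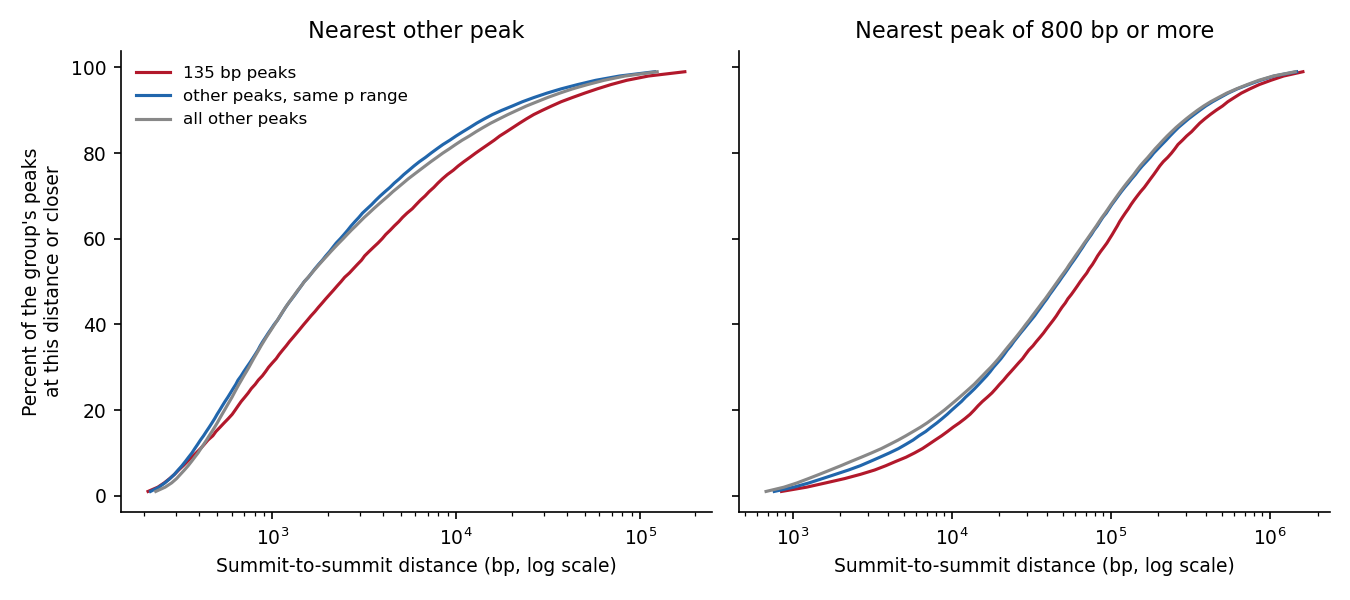
Percent of each group's peaks (y axis) whose nearest other peak (left) or nearest peak of 800 bp or more (right) lies at the distance on the x axis or closer, summit to summit in bp on a log scale, for minimum-width peaks (red), other peaks of the same p range (blue) and all other peaks (grey). At 50% of peaks the red line lies to the right, at 2362 bp and 64472 bp, against 1493 bp and 46339 bp for all other peaks.

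The minimum-width peaks also lay farther from wide peaks, of which the autosomes held 9018 of 800 bp or more with a median fold of 15.3. The median distance to the nearest such peak was 64472 bp for minimum-width peaks (interval 61933 to 67381) and 46339 bp for other peaks (45741 to 46987), a ratio of 1.39. It was 46513 bp for other peaks narrower than 800 bp and 47417 bp for other peaks of the same p range. It was 56911 bp at widths of 136 to 148 bp and 53575 bp at 149 to 199 bp. Other narrow peaks thus also lay farther from wide peaks than the other peaks as a whole. Minimum-width peaks were farther than other peaks on 22 of 22 autosomes, with ratios from 1.05 on chromosome 13 to 1.66 on chromosome 8. A wide peak lay within 1 kb of 151 of the minimum-width peaks (1.43%) and of 2.75% of the other peaks under 800 bp. At the far end, 3.12% of minimum-width peaks and 2.30% of other peaks under 800 bp were over 1000000 bp from any wide peak.

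Among all peaks under 800 bp, the share of minimum width grew with the distance from a wide peak. It was 5.51% (interval 4.68% to 6.43%) within 1 kb of a wide peak, 9.14% between 5000 and 10000 bp and 10.2% between 50000 and 100000 bp. Beyond 1000000 bp it was 13.2% (11.9% to 14.6%). The median local background of these peaks moved with distance too, at 3.65 fragments within 1 kb and 2.43 beyond 1000000 bp. Its part in this gradient was not tested.

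**Figure D3:**
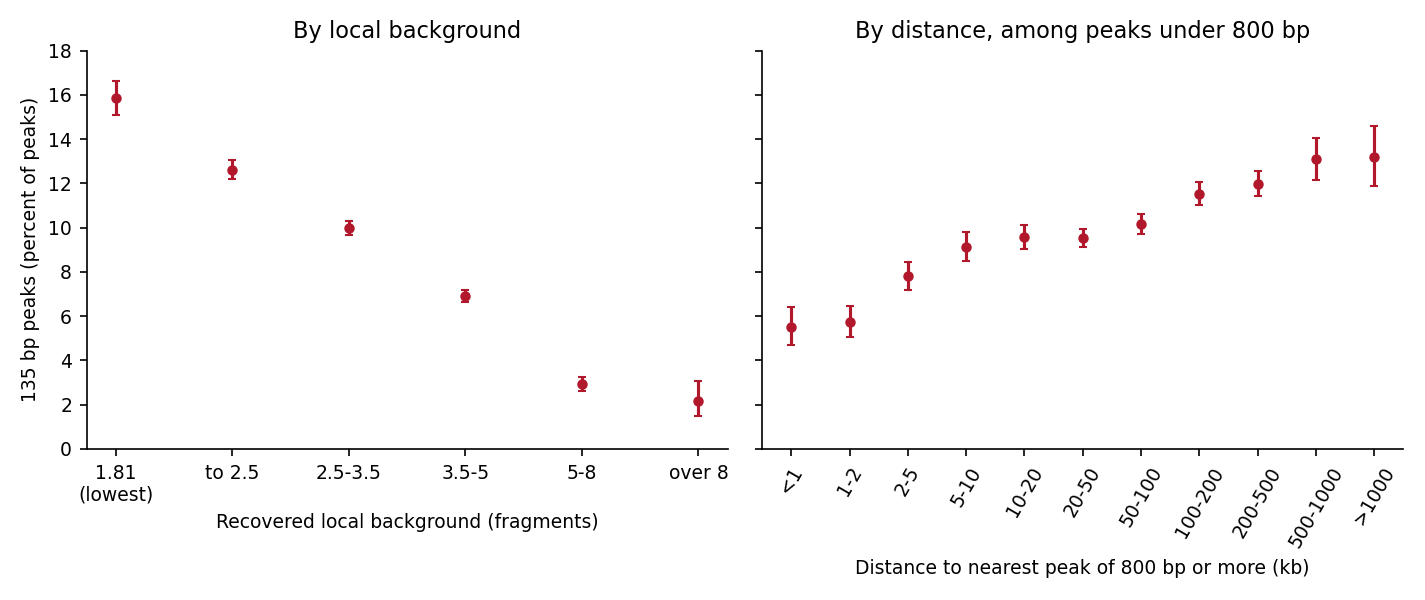
Percent of peaks of minimum width (y axis, points with exact 95% intervals) by recovered local background in fragments (left, all autosomal peaks) and by distance to the nearest peak of 800 bp or more in kb (right, autosomal peaks under 800 bp). The share is 15.9% at the lowest background and 2.18% over 8 fragments, and 5.51% closest to and 13.2% farthest from wide peaks.

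Single sites show the range. The minimum-width peak closest to a wide one lay in 2q12.2 on chromosome 2 from 106020216 to 106020350, its summit 235 bp from that of a peak of 809 bp with a fold of 4.33. The next closest were 263 bp from a peak of 801 bp in 9q34.2 and 316 bp from a peak of 811 bp with a fold of 16.9 in 22q12.1. All 3 wide partners were barely over the 800 bp limit. The 3 farthest all lay in 5p14.1 and 5p14.2, between 6031545 and 7227216 bp from a wide peak, and the farthest covered chromosome 5 from 24445744 to 24445878. The most isolated minimum-width peak, in 4q13.1 on chromosome 4 from 61960728 to 61960862, was 1553048 bp from any other peak and had a fold of 3.34 (1.77 to 5.86) and a q of 0.00792. The second, in 7q31.31 on chromosome 7 from 118933027 to 118933161, was 979953 bp from its neighbour.

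The share of minimum-width peaks fell with the local background. They made up 15.9% of peaks at the lowest background of 1.81 fragments, 9.97% between 2.5 and 3.5, 6.90% between 3.5 and 5, and 2.93% between 5 and 8. This background was recovered from the same fold and p as the peak call, so the gradient is a description. The greater spacing was also seen at given backgrounds. At the lowest background the median nearest distance was 5570 bp for minimum-width peaks and 3630 bp for other peaks, and between 2.5 and 3.5 fragments it was 1911 bp and 1446 bp. Between 5 and 8 fragments the medians were equal, at 1261 bp for minimum-width peaks and 1261 bp for other peaks. Peaks were then divided by background and −log10 p together, and only the 24 classes with at least 20 peaks of each kind were kept. These held 10470 of the 10553 minimum-width peaks. None of them had a background over 8 fragments or a −log10 p of 8 or more. The minimum-width peaks had the longer median distance to the nearest summit in 23 of 24 classes, with a median ratio of 1.35, and the longer distance to a wide peak in 19 of 24, with a median ratio of 1.19.

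Every autosome carried minimum-width peaks, from 151 on chromosome 18 to 943 on chromosome 1. As a share of a chromosome's peaks they ran from 7.35% on chromosome 17 (interval 6.79% to 7.94%), followed by 7.85% on 11 and 8.46% on 20, to 12.2% on chromosome 18 (10.4% to 14.2%), preceded by 11.3% on 13 and 11.2% on 21. The share over all autosomes was 9.27%, which lay inside the interval of 12 autosomes. The interval lay wholly above it on 7 autosomes and wholly below it on 3. Per Mb the order was different, since chromosomes dense in peaks had more of every kind: chromosome 17 held 7.32 of them per Mb and chromosome 18 held 1.93.

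Shares by chromosome went with background. Across 22 autosomes, Spearman's rho between the share of minimum-width peaks and the median background of the chromosome's peaks was -0.68, and between that share and peaks per Mb it was -0.67. Chromosomes are few and share 1 list, so these are descriptions. Each chromosome's share was then standardised to the autosome-wide mix of background classes, leaving out classes with fewer than 10 of its peaks. The order was not kept. Chromosome 18 then had 7.64% and chromosome 17 had 8.35%, while chromosome 21 had the highest share, 11.9%, and chromosome 19 the lowest, 5.92%. The rho with median background was 0.61 after standardisation, opposite in sign. The standardised shares have no interval and can rest on classes of as few as 10 peaks. Their counting error is therefore not known, and neither the new order nor the change of sign is resolved. Of the 7 autosomes whose interval lay above the overall share, chromosomes 5, 10 and 21 were also above it after standardisation, at 10.8%, 10.5% and 11.2% as listed and 11.5%, 10.7% and 11.9% standardised.

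**Figure D4:**
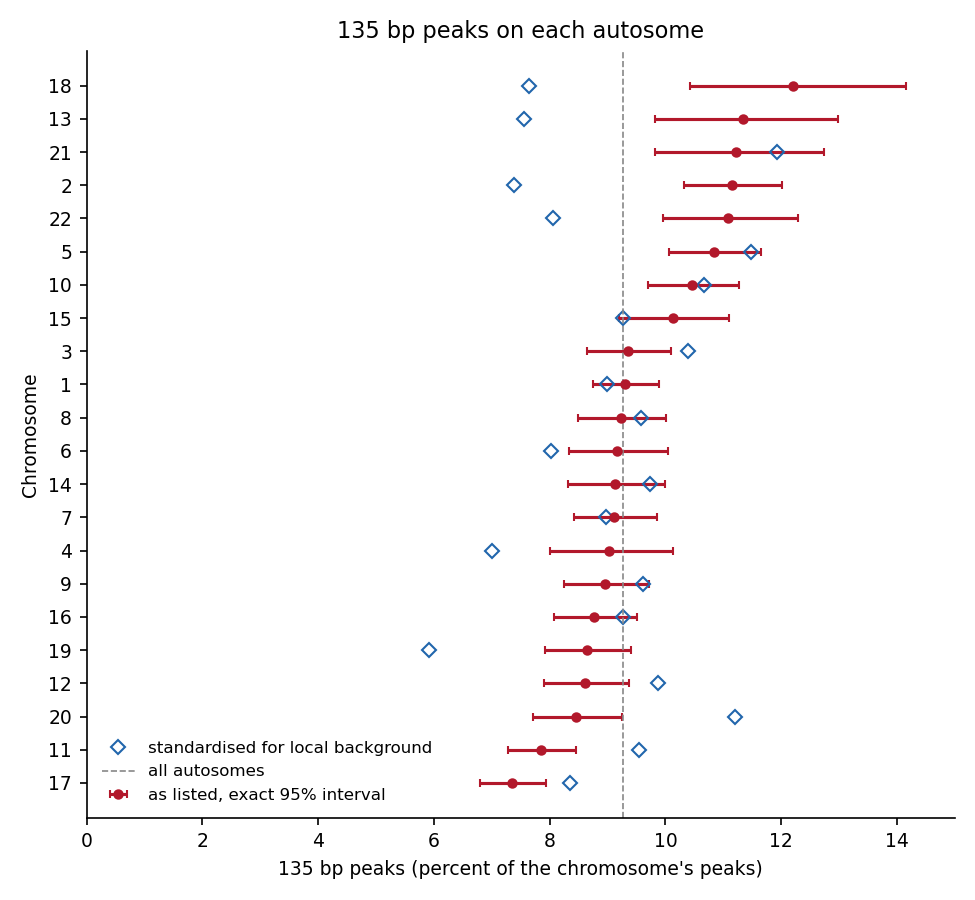
Share of each autosome's peaks of minimum width (x axis, percent), as listed with exact 95% intervals (red). Blue diamonds give the share standardised for local background, without an interval. The dashed line is the share over all autosomes. As listed, chromosome 18 is highest at 12.2% and chromosome 17 lowest at 7.35%; standardised, chromosome 21 is highest at 11.9% and chromosome 19 lowest at 5.92%.

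Pooled by Giemsa stain class, the share of minimum-width peaks was highest in the darkest bands. Giemsa-dark bands are textbook gene-poor, late-replicating chromatin. The share of minimum-width peaks was 11.1% (interval 10.2% to 11.96%) in gpos100, the darkest class, and 9.07% (8.87% to 9.28%) in gneg, the unstained class. The classes between had 8.87% in gpos25, 9.95% in gpos50 and 9.70% in gpos75. In gpos100 bands the median distance to the nearest summit was 18485 bp for minimum-width peaks and 9545 bp for other peaks. Bands at chromosome ends and interior bands had the same share, 9.26% (8.89% to 9.64%) and 9.27% (9.08% to 9.46%).

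Among 298 bands of at least 2 Mb and 100 peaks, none lacked minimum-width peaks and the median share was 9.51%. The interval lay wholly above the share over all autosomes in 18 bands and wholly below it in 26. The highest shares were 19.8% in 5p15.31 (25 of 126 peaks), 16.7% in 1p35.2 (27 of 162) and 16.6% in 9q22.31 (30 of 181). The median background of peaks in these bands was 2.36, 2.06 and 2.05 fragments. The lowest were 3.29% in 17q21.33 (13 of 395), 3.597% in 12p13.31 (5 of 139) and 3.604% in 8p12 (4 of 111), with median backgrounds of 4.32, 1.81 and 2.57. Intervals within each of these trios overlapped, so their order was not resolved. Band 12p13.31 thus combined a low share with the lowest background in the list.

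The kind of the nearest neighbour was counted next. The nearest neighbour was itself a minimum-width peak for 10.4% of minimum-width peaks (interval 9.86% to 11.03%) and for 9.03% of other peaks (8.85% to 9.20%). It was one for 10.1% of other peaks of the same p range (9.76% to 10.5%) and 9.83% of other peaks under 200 bp (9.54% to 10.1%), whose intervals overlap that of the minimum-width peaks. Along the chromosomes they formed 9438 runs of successive minimum-width peaks, of which 8428 were single. Such counts depend on the share over all autosomes, 9.27%. What random order would give was not computed, so the runs are a description. The longest run held 5 peaks over 673213 bp in 9q21.31 on chromosome 9, from 81718684 to 82391896, with folds from 3.27 to 4.24 and backgrounds of 1.81 to 2. The closest pair of minimum-width peaks lay in 1p36.23 on chromosome 1, from 7765060 to 7765194 and from 7765249 to 7765383, with summits 90 bp apart. Their folds were 3.67 (1.999 to 6.30) and 2.52 (1.34 to 4.43).

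Joining peaks over gaps of up to that stitching distance gave 33513 clusters, and 7467 of them held a minimum-width peak. Of the minimum-width peaks 20.1% (interval 19.3% to 20.8%) stood alone, against 14.98% (14.8% to 15.2%) of other peaks, and 37.3% lay in clusters of 10 or more, against 44.2% of other peaks. Their share among peaks was 12.03% in clusters of 1 peak, 9.40% in clusters of 5 to 9 and 7.24% in clusters of 50 or more. A cluster that also held a wide peak contained 34.4% of minimum-width peaks and 42.2% of other peaks under 800 bp. Clusters made up only of minimum-width peaks numbered 2191, and 75 of these had more than 1 peak. These counts too were not set against random order. Among 164 clusters of 50 or more peaks, 3 held no minimum-width peak, and the cluster with the most held 31 among 460 peaks.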

How the data were processed

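ELF5 ChIP-seq was done in 3 replicates with 1 input in T47D, per the labels. The authors' deposited peak list uses hg19, as its header and the submitters' processing notes state, and the header refers to IDR and to 1-3, without saying whether that means replicates 1 to 3 or 1 and 3. How reads were aligned, which caller and threshold were used, how the input entered and whether replicates were pooled are steps that no source used here gives, nor do the labels say whether replicates were separate cultures. The lowest −log10 p of any autosomal peak was 2.01, and whether a cut-off was set near it is not stated. The authors' score, as deposited, is the whole part of 10 times −log10 p, which held in 115384 of 115384 rows. The authors' −log10 p, −log10 q and signal value, which behaves as a fold (a ratio), were used as deposited to describe, rank or filter peaks within the list.

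The minimum width was 135 bp, and peaks of 800 bp or more are called wide. Pileup and background were inferred from fold and p: whole pileups were multiplied by 0.910, fold was taken with a pseudocount of 1 and p as a Poisson tail, which matched every p within 0.001 of −log10 p. Backgrounds were rounded to 0.001 fragments and divided at 1.815, 2.5, 3.5, 5 and 8. A class counted towards a chromosome's standardised share if it had at least 10 peaks there. Clusters joined gaps of up to 12.5 kb. Total reads are unknown here. Band positions came from circlize 0.4.16 in R 4.3.3 (checked against chromosome lengths in GenomeInfoDb 1.38.1: 24 of 24 equal). Recovery and distances were tested on simulated data. Software was matplotlib 3.10.9, pandas 2.3.3, scipy 1.17.1 and numpy 2.4.6 under Python 3.11.15.

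The members, measures and lists were chosen with earlier results of these data known. Regions were named by rule: the 3 highest folds, the 3 weakest p, the 3 closest to and the 3 farthest from a wide peak, the 2 most isolated, the longest run, and the 3 highest and 3 lowest shares by autosome and band. The closest pair was named after its values were seen. Alternatives covered width, q, joining and the peaks compared. Genes and sequences at these positions were not analysed here, since no hg19 annotation or genome was used.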

Additional observations from a re-analysis of the deposited data

How the results depend on the processing

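Values are ratios of minimum-width to other peaks unless stated. Widening the rule to 1.1 times the minimum width gave 20755 peaks, a nearest-summit ratio of 1.46 (1.58 as reported), a fold ratio of 0.794 (0.804) and a ratio of the share on chromosome 18 to that on 17 of 1.34 (1.66). With q under 0.05 in both groups, the nearest-summit ratio was 1.75, the wide-peak ratio 1.499 (1.39), the chromosome ratio 2.08 and the neighbour ratio 1.24 (1.16). The nearest-summit ratio was 1.88 from edge to edge and 1.05 with peaks within 1 kb joined. The wide-peak ratio was 1.19 for peaks of 2000 bp or more and 1.29 as the median within autosomes. Within classes of background and p, an alternative added after seeing the data, the nearest-summit ratio was 1.35 (range 0.847 to 6.002) and the wide-peak ratio 1.19 (0.662 to 3.97). The chromosome ratio was the other way round per Mb, 0.264, and after standardising for background, 0.915, both without an interval. The neighbour ratio was 1.08 for both flanking neighbours (interval 0.885 to 1.32), the fold ratio 0.930 against other peaks under 200 bp, and the ratio of shares alone in a cluster 1.23 with joining within 1 kb (1.34). Of 34 alternative values, 17 moved beyond the counting interval of the reported value or, for the count, by over 1.5 times, 2 reversed and 15 did neither. Where no construction shows it, the cause was not tested. Merging overlapping or touching rows left 10553 minimum-width peaks, but no autosomal peak had another closer than 51 bp from edge to edge. That alternative could therefore change nothing, and it is counted among the 15. No paired analysis was possible because replicates have no values of their own here, and leaving out each replicate was not run for the same reason. Single peaks rest on too few fragments to be ranked when their folds are close.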

Other observations

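Chromosomes X and Y lay outside the comparisons. On X, 138 of 1529 peaks were of minimum width, a share of 9.03% (interval 7.64% to 10.6%), at a median background of 2 fragments. Chromosome 18, with a median background of 2, had 12.2%, and chromosome 19, with 2.08, had 8.64% (7.91% to 9.41%), so chromosomes of like background did not have like shares. On X the median fold was 3.43 in minimum-width peaks and 5.53 in other peaks. On Y, 2 of 24 peaks were of minimum width.

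The minimum-width peak with the most fragments was not a strong one. It lay in 10p11.21 on chromosome 10 from 35310614 to 35310748, with 50 fragments piled up where the background was 26, a fold of 1.72 (1.29 to 2.26), the lowest of any minimum-width peak, and a q of 0.0318. It was chosen after its values were seen.

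Spacing differed between minimum-width peaks of different p. Their median distance to the nearest summit was 1728 bp at −log10 p from 2 to 3, 2185 bp from 3 to 4, 2716 bp from 4 to 5 and 3780 bp from 5 to 6. It was 3042 bp from 6 to 8 (305 peaks) and 3966 bp from 8 upwards (39 peaks), so the increase did not continue through every class. In other peaks of these 6 classes it was 1369, 1444, 1474, 1646, 1450 and 1522 bp. The median background of the minimum-width peaks was 3.70, 2.97, 2.47, 2, 2.98 and 3.51 fragments in the same classes, and its part was not tested.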
